A study of Mus musculus with 6 samples.

Results

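Footprint levels of nucleolar factors that act in ribosome assembly were examined in 266-6, a mouse cell line with features of pancreatic acinar cells, with and without Mettl18. The comparison held 3 wild-type (WT) and 3 Mettl18 knockout (KO) libraries. Mettl18 encodes a methyltransferase whose substrate is a histidine of the ribosomal protein RPL3. Cells of both genotypes had received a plasmid encoding FLAG-tagged Reg1 and were grown for 48 h, so this transfection was shared by controls and knockouts. The labels do not say whether the KO libraries came from 1 clone or several, or whether the libraries of a genotype were separate cultures, and p-values reflect only library-to-library spread, which may be technical.

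Of 7 listed transcripts, 5 were kept by a rule on identifier and length. A row was used when its deposited length value equalled the protein's number of residues minus 9. Ncl (ENSMUST00000027438, 698), Npm1 (ENSMUST00000075641, 283), Fbl (ENSMUST00000042405, 318), Dkc1 (ENSMUST00000033776, 500) and Eif6 (ENSMUST00000029142, 236) met it. Each of these length values was held by 0.0417% to 0.159% of the 67139 rows that carry one. The rows listed for Nop56 and Nop58 had values of 287 and 435 where the rule asked for 571 and 527. Both were dropped from the members, and the values of these rows are given only at the end, by identifier. The names and residue numbers come from this rule and were not checked against a protein table, because the deposited tables give identifiers only. For the same reason Mettl18 itself, acinar markers and the other nucleolar genes were not analysed here, and no check of the genotype labels on the targeted gene was made. The members were 5 of 39355 distinct rows with a count, and all 5 were among the 30588 tested.

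The nucleolus is where ribosomal RNA is transcribed, chemically modified, cut and joined with ribosomal proteins into subunit precursors. Small nucleolar RNAs guide the modifications: box C/D particles direct ribose methylation through the methyltransferase fibrillarin, and H/ACA particles direct pseudouridylation through dyskerin. Nucleolin and nucleophosmin are abundant, multifunctional proteins that bind RNA, histones and precursor ribosomes. Eif6 protein acts late, on the large subunit, where it prevents premature joining with the small one. In the RefSeq annotation of GRCm38.p6, all 5 genes are protein-coding. Ncl lies at chr1:86344719-86359455, Npm1 at chr11:33152498-33164142, Fbl at chr7:28168893-28179269, Dkc1 at chrX:75095854-75109776 and Eif6 at chr2:155819837-155826925.

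RefSeq promoter sequence (GRCm38.p6) was found for 2 of the 5 genes, Dkc1 and Ncl. The 250 bases before each gene's start are shown 5′ to 3′ to place these genes in their sequence context. Capitals mark matches on either strand to the GC box GGGCGG, the CCAAT box CCAAT or the E-box CACGTG, which do not overlap one another here.
Dkc1, chrX:75095604-75095853, plus strand: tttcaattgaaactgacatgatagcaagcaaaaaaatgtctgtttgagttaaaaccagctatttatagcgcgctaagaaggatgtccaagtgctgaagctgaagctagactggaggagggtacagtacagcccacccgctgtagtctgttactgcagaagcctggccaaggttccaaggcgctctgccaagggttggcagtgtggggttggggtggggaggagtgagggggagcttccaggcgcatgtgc
Ncl, chr1:86359456-86359705, minus strand: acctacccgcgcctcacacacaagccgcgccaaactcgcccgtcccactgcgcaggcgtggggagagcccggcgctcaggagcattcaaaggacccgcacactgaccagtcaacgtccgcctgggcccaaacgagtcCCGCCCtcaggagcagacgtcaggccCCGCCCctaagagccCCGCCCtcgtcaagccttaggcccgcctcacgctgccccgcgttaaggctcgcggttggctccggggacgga
The Ncl window held 3 GC boxes, beginning 113, 87 and 72 bases before the start, and 0 matches to the other motifs. The Dkc1 window held 0 matches to any of the 3. Among all 32851 promoter windows of this length, 32.7% held a GC box, 33.8% a CCAAT box and 6.02% an E-box. These are letter matches only, and their relation to footprint levels was not tested.

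The WT libraries held 3792964 to 5131937 counts over distinct rows and the KO libraries 5379044 to 7106203. KO replicates 2 and 3 were the closest pair of libraries, with a chi-square per degree of freedom of 1.34 over tested transcripts, against 4.75 to 11.9 for the other pairs of the same genotype. They were kept as separate samples, and values with the pair summed as 1 sample are given where they change a call. Levels are CPM, counts relative to the library total, after TMM scaling, which adjusts totals for composition. Fold changes are KO over WT in the quasi-likelihood test of edgeR, with p adjusted by Benjamini-Hochberg over all tested transcripts and a threshold of 0.05.

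In Mettl18 KO cells, footprints rose on 1 of the 5 nucleolar transcripts, Dkc1, and fell on 0. Over all tested transcripts 5.14% rose and 4.3% fell. Among the 6283 transcripts at least as high as the lowest member, Dkc1 at 36.0 CPM over all libraries, 8.91% rose. At an unadjusted p under 0.05, 3 of the 5 were higher and 0 lower, against 12.7% and 13.3% of all tested transcripts. DESeq2's Wald test called 2 members higher (Dkc1 and Ncl) and 0 lower, with 1372 transcripts called higher and 1061 lower in all. By limma-voom 1 member was called higher and 0 lower, with 1599 transcripts called higher and 1295 lower in all. The median log2 fold change of the 5 was 0.47, against -0.06 over all tested transcripts and 0.06 over those at least as high as the lowest member. All KO libraries lay above all WT libraries for 2 members, Npm1 and Dkc1, a pattern seen in 15.5% of tested transcripts.

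**Figure D1:**
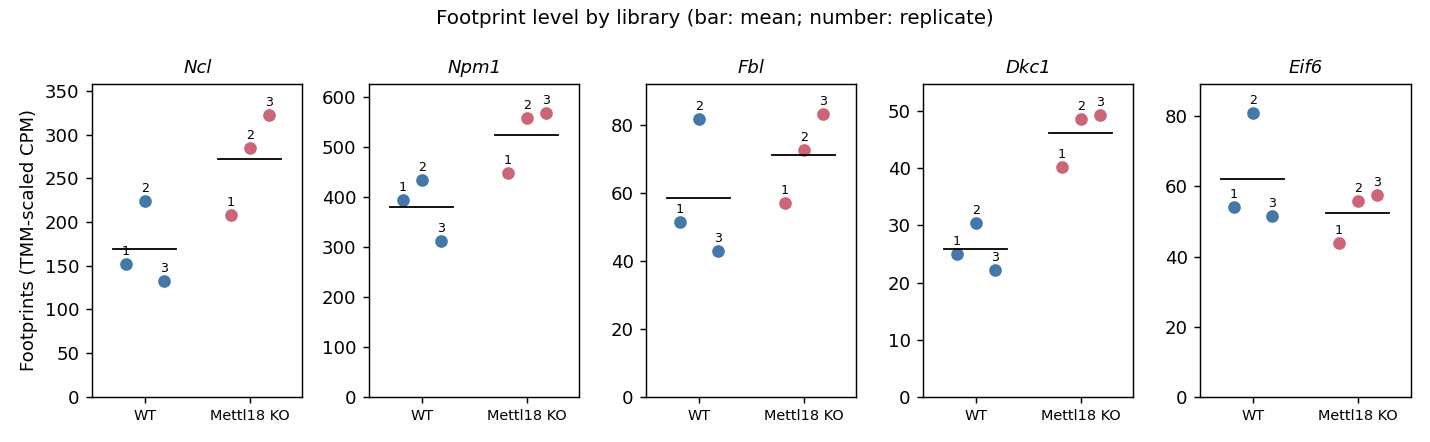
Footprint level of each of the 5 transcripts in TMM-scaled CPM (vertical axes from 0, a scale for each gene) in the 3 WT and 3 Mettl18 KO libraries; points are libraries numbered by replicate and bars are means. WT and KO points are apart for Npm1 and Dkc1 and overlap for Ncl, Fbl and Eif6.

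Dkc1 encodes dyskerin, the pseudouridine synthase of H/ACA particles, which is also a component of telomerase. Its level was 25.0, 30.3 and 22.2 CPM in WT replicates 1 to 3, and 40.3, 48.7 and 49.4 CPM in KO. The lowest KO library was thus 1.33 times the highest WT library. The mean went from 25.9 ± 4.13 to 46.1 ± 5.08 CPM (SD, n = 3 each), a log2 fold change of 0.84 ± 0.17 (SE; adjusted p = 0.0173, edgeR). This is 1.79-fold, larger than for 95.1% of tested transcripts, with 110 to 123 counts in each WT library and 252 to 331 in each KO library. The call was lost without WT replicate 1 (log2 0.80, adjusted p = 0.0657), without KO replicate 2 (0.80, adjusted p = 0.108) and without KO replicate 3 (0.79, adjusted p = 0.104) in the same edgeR test. It was also lost with KO replicates 2 and 3 summed (log2 0.80, adjusted p = 0.0965).

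Npm1 encodes nucleophosmin, a histone chaperone of the outer, granular part of the nucleolus. Its level was 393.3, 433.3 and 311.3 CPM in WT and 447.7, 557.7 and 566.6 CPM in KO. KO replicate 1 lay just above WT replicate 2, so the groups were separate by a narrow gap. The mean was 379.3 ± 62.2 CPM in WT and 524.0 ± 66.2 CPM in KO (SD, n = 3), with a log2 fold change of 0.47 ± 0.19 that did not pass the threshold (SE; adjusted p = 0.157, edgeR). With 1571 to 3792 counts per library, it was the most deeply counted member. A further 3 rows within 10 lines of it had counts within 2-fold of it in every library. Such rows probably share its footprints, and their log2 fold changes were 0.41 to 0.47. Npm1 also has processed pseudogenes in the mouse genome. How reads that match several places were counted is not known here, for Npm1 or for the other members. Its level is uncertain in this respect, and this was not tested.

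Ncl encodes nucleolin, an RNA-binding protein that takes part in transcription and early processing of ribosomal RNA. Its level was 151.8, 223.7 and 132.4 CPM in WT and 208.5, 284.7 and 322.2 CPM in KO. WT replicate 2 stood above KO replicate 1, so the groups overlapped. The mean was 169.3 ± 48.1 CPM in WT and 271.8 ± 57.9 CPM in KO (SD, n = 3), and the log2 fold change of 0.68 ± 0.24 did not pass the threshold (SE; adjusted p = 0.101, edgeR). Without WT replicate 2 it did, at log2 0.94 (edgeR adjusted p = 0.0202), and so it did in DESeq2's Wald test on all 6 libraries, at log2 0.70 (adjusted p = 0.048).

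Fbl encodes fibrillarin, the methyltransferase of box C/D particles. Its level was 51.3, 81.6 and 42.8 CPM in WT and 57.2, 72.7 and 83.3 CPM in KO. WT replicate 2 reached nearly the level of the highest KO library, so the groups overlapped widely. The mean was 58.6 ± 20.4 CPM in WT and 71.0 ± 13.1 CPM in KO (SD, n = 3), with a log2 fold change of 0.28 ± 0.24 (SE; adjusted p = 0.497, edgeR). The size of this value rested on single libraries: it was 0.60 without WT replicate 2, 0.42 without KO replicate 1, 0.19 without WT replicate 1, 0.16 without KO replicate 3 and 0.10 without WT replicate 3.

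Eif6 was the one member with a lower mean in KO. Its level was 54.2, 80.8 and 51.7 CPM in WT and 43.8, 55.9 and 57.4 CPM in KO. Only WT replicate 2 stood above the KO range, and only KO replicate 1 below the WT range. The mean was 62.2 ± 16.1 CPM in WT and 52.4 ± 7.47 CPM in KO (SD, n = 3), with a log2 fold change of -0.25 ± 0.20 (SE; adjusted p = 0.477, edgeR). Without WT replicate 2 the log2 fold change was -0.0100, so nearly all of the difference rested on that library. It was -0.13 without KO replicate 1.

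**Figure D2:**
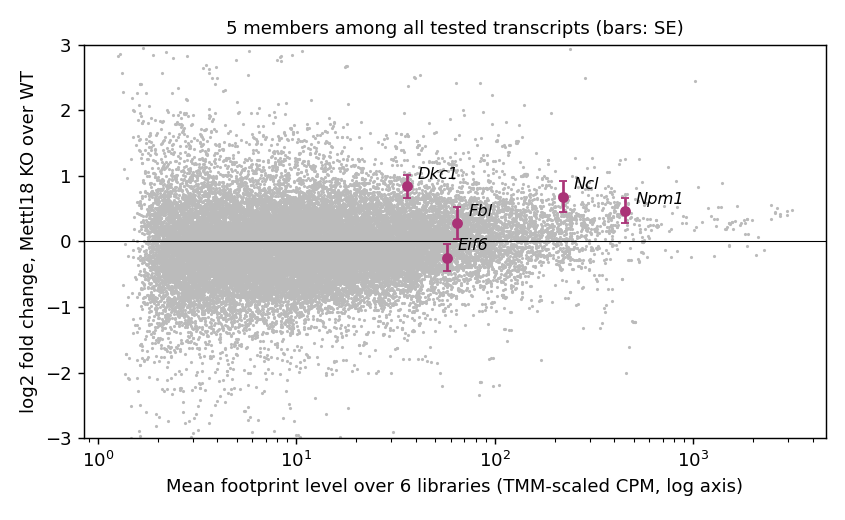
Log2 fold change, Mettl18 KO over WT, against the mean level over 6 libraries (TMM-scaled CPM, log axis) for all tested transcripts (grey) and the 5 members (purple, bars are SE); 95 transcripts lie beyond the vertical axis. Dkc1 and Ncl lie towards the upper edge of the cloud at 0.84 and 0.68, and Eif6 lies below 0 at -0.25.

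**Figure D3:**
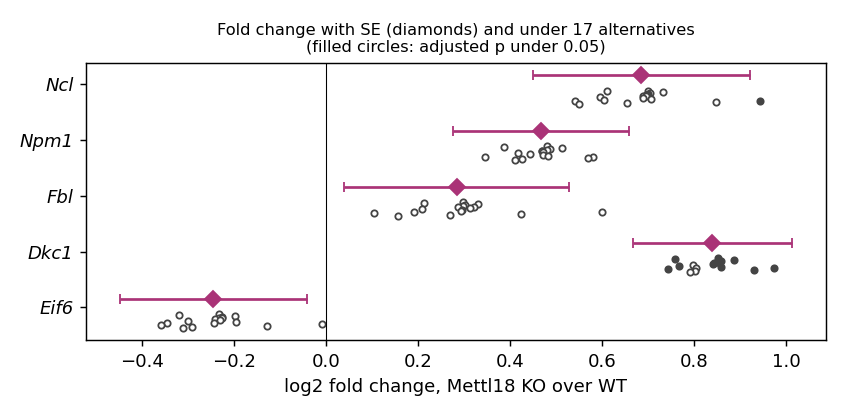
Log2 fold change, Mettl18 KO over WT, of each member with its SE (diamonds) and under 17 alternative settings (circles, filled where the adjusted p is under 0.05). Dkc1 stays between 0.74 and 0.97 and is called in 13 of the 17, and the other members are mostly not called. The settings without the Dkc1 call drop WT replicate 1, KO replicate 2 or KO replicate 3, or sum KO replicates 2 and 3.

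Footprint levels per length differed widely among the 5. Expressed as CPM per 100 units of the length value, the WT mean was 134.0 ± 22.0 for Npm1, 26.4 ± 6.84 for Eif6, 24.3 ± 6.89 for Ncl, 18.4 ± 6.42 for Fbl and 5.17 ± 0.826 for Dkc1 (SD, n = 3). Npm1 stood above all the others and Dkc1 below them in every library. The WT ranges of Eif6, Ncl and Fbl overlapped, but within each WT library Eif6 lay above Ncl and Ncl above Fbl. In KO the per-length means were 185.2 ± 23.4 for Npm1, 38.9 ± 8.30 for Ncl, 22.3 ± 4.13 for Fbl, 22.2 ± 3.17 for Eif6 and 9.22 ± 1.01 for Dkc1. There the Ncl range (29.9 to 46.2) lay above those of Fbl (17.98 to 26.2) and Eif6 (18.6 to 24.3), and the latter overlapped. These are per-length footprint levels, which also depend on mRNA amount, and no matched RNA-seq was used here.

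The balance among the members can be read from counts within each library, which need no scaling between libraries. The count ratio of Dkc1 to Eif6 was 0.461, 0.375 and 0.430 in WT and 0.920, 0.871 and 0.860 in KO. The KO mean ratio was 2.09 times that of WT, and the groups lay far apart. The ratio of Ncl to Eif6 was 2.80, 2.77 and 2.56 in WT and 4.76, 5.09 and 5.61 in KO, 1.90 times higher on average. The ratio of Npm1 to Eif6 averaged 6.21 ± 0.959 in WT and 10.0 ± 0.183 in KO, and that of Fbl to Eif6 0.928 ± 0.0921 in WT and 1.35 ± 0.0854 in KO (SD, n = 3). So the WT and KO libraries were separate for each member's ratio to Eif6, also for Ncl and Fbl, whose levels overlapped. Eif6 was taken as the denominator after its values were seen, and 24.3% of tested transcripts had a higher ratio to it in all KO libraries than in all WT libraries.

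**Figure D4:**
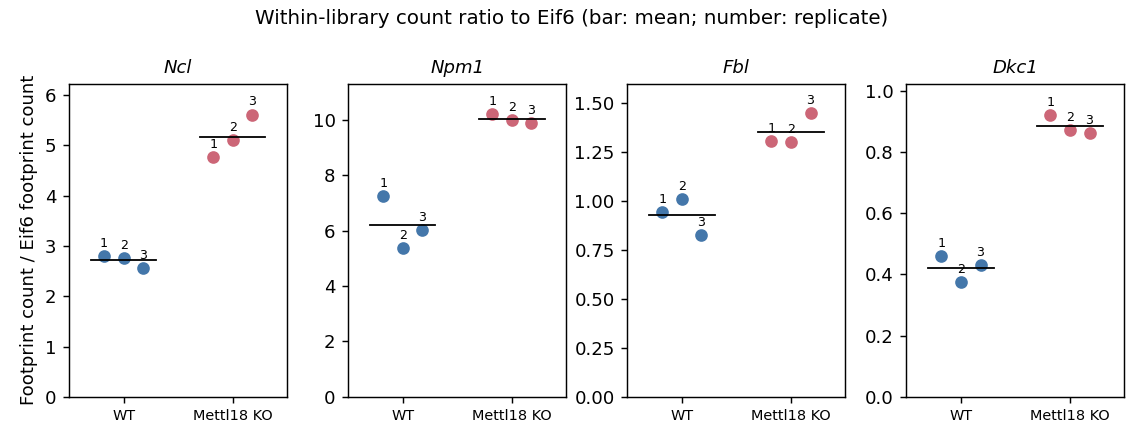
Footprint count of Ncl, Npm1, Fbl and Dkc1 divided by the footprint count of Eif6 in the same library (vertical axes from 0), for 3 WT and 3 Mettl18 KO libraries numbered by replicate; bars are means. In each panel all KO points lie above all WT points, with KO means of 5.16, 10.0, 1.35 and 0.884.

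Of the 10 ratios among the 5 members, 7 did not overlap between WT and KO libraries, and 4 of these 7 are the ratios to Eif6. Among all pairs of the 6283 transcripts at least as high as the lowest member, 44.7% of count ratios separated WT from KO libraries (higher or lower in KO), so such separation was common. The 3 that overlapped were Ncl to Npm1 (0.443 ± 0.0668 in WT, 0.515 ± 0.0516 in KO), Ncl to Dkc1 (6.47 ± 0.786, 5.85 ± 0.673) and Npm1 to Fbl (6.75 ± 1.26, 7.44 ± 0.555). Dkc1 was higher in KO relative to Npm1 and to Fbl: the ratio of Npm1 to Dkc1 went from 14.7 ± 0.927 to 11.3 ± 0.200 and that of Fbl to Dkc1 from 2.22 ± 0.409 to 1.53 ± 0.138. Ncl was higher relative to Fbl, at 2.93 ± 0.178 in WT and 3.81 ± 0.144 in KO (SD, n = 3). The ratios share members, so they are not 7 separate observations, and they were not tested.

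Within each genotype the 5 transcripts followed the same order of libraries. All 5 were highest in WT replicate 2 and lowest in WT replicate 3, and all 5 were highest in KO replicate 3 and lowest in KO replicate 1. This full order of libraries was seen in 9.83% of tested transcripts. The summed level of the 5 was 675.6, 849.9 and 560.4 CPM in WT and 797.4, 1020 and 1079 CPM in KO, so WT replicate 2 stood above KO replicate 1. The SD of log2 CPM within WT was 0.39 for Ncl, 0.25 for Npm1, 0.48 for Fbl, 0.22 for Dkc1 and 0.35 for Eif6. The median of this SD was 0.25 over the 6283 transcripts at least as high as the lowest member. Within KO the 5 SDs ran from 0.16 to 0.32, against a median of 0.13.

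**Figure D5:**
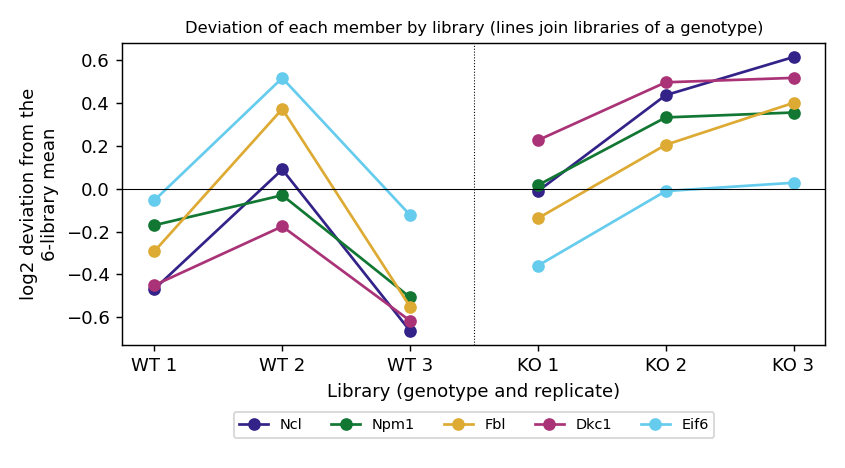
Log2 deviation of each member from its 6-library mean, by library; points are libraries, and lines only join the libraries of a genotype to guide the eye. All 5 members peak in WT replicate 2 within WT and lie lowest in KO replicate 1 within KO, and Eif6 is the highest member in each WT library and the lowest in each KO library.

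The libraries also differed in how footprints were spread over long and short transcripts. The median log2 deviation of long transcripts (length value from 1000 up), less that of short ones (under 200), was -0.06, -0.29 and 0.47 in WT and 0.17, -0.17 and -0.14 in the KO libraries. WT replicate 3 and KO replicate 1, where the 5 members were lowest, thus had the highest values in their genotype. With each library's length trend removed, the within-WT SD was 0.44 for Ncl (0.39 before) and 0.41 for Fbl (0.48 before). It was 0.28 for Eif6 (0.35 before), 0.22 for Dkc1 (0.22 before) and 0.16 for Npm1 (0.245 before). Within KO the SD was 0.365 for Ncl (0.323 before) and 0.20 for Dkc1 (0.163 before), and changed little for Fbl, Npm1 and Eif6. The order of libraries within each genotype stayed as it was, except that WT replicates 1 and 3 changed places for Eif6. Whether the length trend shaped this order was not tested. Dkc1 remained the one member called, at a log2 fold change of 0.86 ± 0.17 (SE; adjusted p = 0.0128, edgeR).

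Transcripts whose pattern over the 6 libraries was most like the mean standardized profile of the 5 were ENSMUST00000177796.1 and ENSMUST00000176059.1 (Pearson's r of 0.9997 and 0.9992, 6 libraries). These rows stand 1 line apart with counts within 1.07-fold of each other, so they probably share footprints. Neither passed the test, with log2 fold changes of 0.33 and 0.34 (edgeR adjusted p = 0.429 and 0.416). Of 10746 transcripts of at least 20 CPM, 1242 had an r above 0.9, so such likeness was common.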

How the data were processed

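Ribosome-protected fragments were deposited as raw counts per transcript, 1 file per library, in 3 WT and 3 Mettl18 KO libraries. The authors' counts had no normalization. Cells were lysed with 100 μg/ml cycloheximide, per the labels' protocols. The submitters' processing notes name STAR 2.7.0a, UMI-tools 1.1.2, cutadapt 3.7, CASAVA 1.8 and build mm10; for the counting program, annotation release and strand setting, nothing was given in the sources used here. The second column, a length value of unstated unit, was used as deposited.

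Of 142314 rows, 54710 had a count, and rows with identical counts were kept once. Isoforms share footprints, so totals count some of them more than once. Counts were tested with edgeR 4.0.16 (R 4.3.3), filterByExpr, TMM and genotype as the only term. SE is the fold change over the root of F. A check on simulated counts was run first. It drew independent libraries with a fixed spread and no length trend, unlike these, so it does not show how reliable the calls are here. Alternatives used DESeq2 1.42.0 and limma 3.58.1. The named genes are the listed members that met the length rule. Members and lists were chosen with earlier results of these data known. Protein features, the Nop56 and Nop58 ratios and gene lists that need symbols were not analysed here. Same-numbered libraries were checked for pairing: their deviations correlated at -0.05, 0.41 and -0.39, so numbers were not taken as pairs.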

Additional observations from a re-analysis of the deposited data

How the results depend on the processing

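Many of the 17 alternatives refit the same libraries with other settings. Each of the 5 members kept its direction in all 17. Dkc1 was called in 13 of them, with a log2 fold change of 0.74 to 0.97 and adjusted p of 0.00595 to 0.108, Ncl in 2 (0.54 to 0.94), and Npm1 (0.35 to 0.58), Fbl (0.10 to 0.60) and Eif6 (-0.36 to -0.0100) in 0. The number of members called higher was 1, but 2 in DESeq2's Wald test (Ncl at log2 0.70), 0 with KO replicates 2 and 3 summed (Dkc1 at log2 0.80) and 0 to 2 with each library left out. With the pair summed, 436 transcripts rose and 356 fell, in place of 1571 and 1315. With each library left out in turn, 368 to 2223 transcripts rose and 302 to 1715 fell, the fewest without KO replicate 2. They were 410 and 312 without KO replicate 3, 714 and 689 without WT replicate 1, and 1154 and 867 without KO replicate 1. Without WT replicate 2 they were 2223 and 1715, and without WT replicate 3 they were 1345 and 1431. Each of these fits holds fewer samples, and why the numbers differ was not tested. With library sizes alone, 1413 rose and 1754 fell, so the share of rises among calls depends on the scaling. The replicate block left Dkc1 called (log2 0.84, adjusted p = 0.0277), with 1169 risen and 944 fallen transcripts. The summed level of the 5 members was 270.0 CPM higher in KO, 225.0 in plain CPM, and 202.6 to 354.0 with each library left out. Most of this difference lay in Npm1 (mean 379.3 CPM in WT, 524.0 in KO) and Ncl (169.3, 271.8), neither called in the main fit. Dkc1 (25.9, 46.1) and Fbl (58.6, 71.0) added less, and Eif6 was lower in KO. A member without a call is not shown to be unchanged.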

Other observations

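The 2 rows that the length rule dropped had these values when every row was tested on its own. ENSMUST00000028890.14, with a length value of 287, held 158, 167 and 148 counts in WT and 297, 323 and 241 in KO, with a log2 fold change of 0.35 ± 0.20 (SE; adjusted p = 0.3, edgeR). ENSMUST00000027174.9, with a length value of 435, held 422, 407 and 430 counts in WT and 797, 805 and 626 in KO, with a log2 fold change of 0.32 ± 0.17 (SE; adjusted p = 0.253, edgeR). Rows with the length values the rule asked for, 571 and 527, stood 5 lines and 1 line away in the tables. Their log2 fold changes were 0.30 ± 0.16 (SE; adjusted p = 0.276, edgeR) and 0.30 ± 0.17 (SE; adjusted p = 0.273, edgeR). They were given no gene name, since a row's place does not identify its gene. None of these 4 rows passed the test.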
